A study of Homo sapiens with 6 samples.

Results

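The genes of the chemokine system were examined in SU-DHL-2 cells with and without IL-17A. The 49 genes were chosen by family, as 32 chemokine ligands and 17 chemokine receptors of the CC, CXC, XC and CX3C classes, and they were found among the 19740 named genes of the array through the RefSeq accession of each probe. SU-DHL-2 is an established human diffuse large B-cell lymphoma (DLBCL) line. The cells were cultured for 72 h with IL-17A at 200 pg/ml or for the same time without it, no other agent was named for either group, and RNA of 3 samples per group was measured on 1-colour Agilent whole-genome arrays, 1 array per sample. The labels call the samples replicates without saying that they came from separate cultures, so p-values measure the spread between these samples, which may be technical.

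Chemokines are small secreted proteins that bind seven-transmembrane receptors coupled to the inhibitory G protein and draw cells along their gradient. Lymphoid B cells find their place through CXCR5, CXCR4, CCR7 and CCR6, whose ligands are made mostly by stromal cells, whereas activated or malignant B cells secrete ligands such as CCL3, CCL4, CCL17 and CCL22. IL-17A, the cytokine of Th17 cells, is best known for inducing neutrophil-attracting CXC ligands and CCL20 in epithelial and stromal cells.

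Detection came first, because the array cannot order signals below its background. A spot passed when it was positive, significant and well above background. A probe counted as detected on an array when at least as many of its spots passed as failed. By the probe with the highest mean signal, 22 of the 49 genes (12 ligands and 10 receptors) were detected on all 6 arrays and 19 genes (15 ligands and 4 receptors) on none. The 19 undetected genes had normalized log2 signals of 0 to 2.19, against a lowest signal well above background of 1.86 to 2.11, depending on the array. All signals and differences in this text are on that log2 scale, and signals of different probes cannot be set against each other. A test was made for genes with a probe detected on at least 3 of the 6 arrays, which left 27 genes, 15 ligands and 12 receptors.

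**Figure D1:**
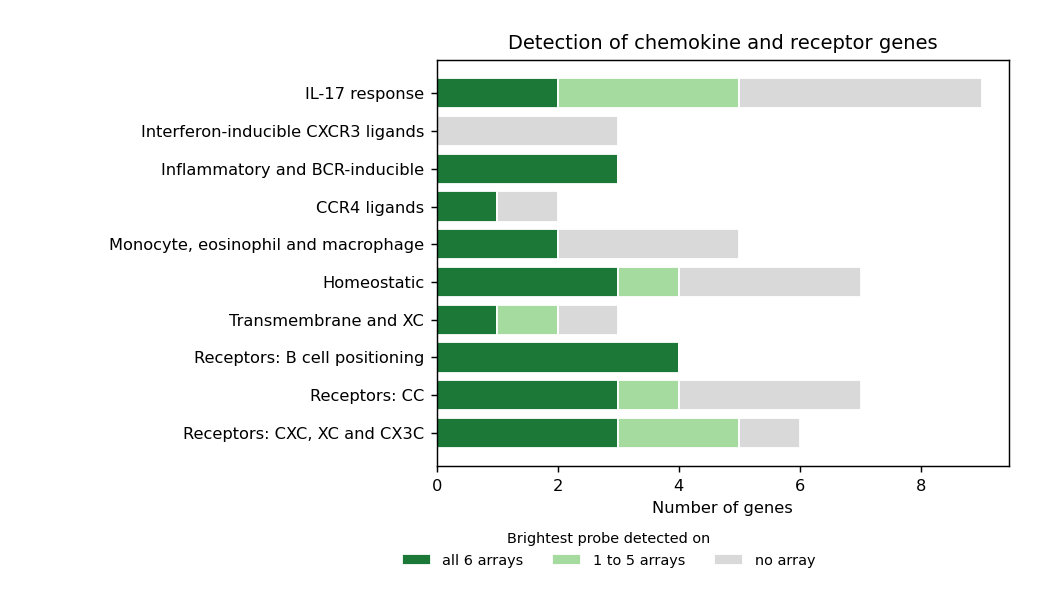
Number of genes of each group of ligands (top 7 bars) and receptors (lowest 3 bars) whose brightest probe was detected on all 6 arrays, on 1 to 5 arrays or on no array. The 4 B-cell positioning receptors were detected on all 6 arrays, and the 3 interferon-inducible CXCR3 ligands on none.

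Most of the chemokines that IL-17A is known to induce elsewhere were not measurable in these cells. Of 9 such ligands, CXCL3, CXCL6, CXCL8 and CCL20 were detected on none of the 6 arrays, and CCL7 on 1 control array. The arrays therefore give no level for CXCL8, the main neutrophil attractant, or for CCL20, the ligand of CCR6, in either group. The upstream DNA of such a ligand is set here beside that of the detected ligand CXCL5 and of 5 of the 6 genes that changed (described in the paragraphs on receptors and CCL24; no sequence is shown for CCR7), to show whether they share the letters of an NF-kB site, since NF-kB is a factor through which IL-17A acts in other cells. Each sequence is the 150 bases before the gene's most upstream RefSeq start, read 5′ to 3′ on the gene's strand (GRCh38.p14). Capitals mark the NF-kB letters GGNNNTTCC, the octamer ATGCAAAT, the C/EBP letters TTNNGNAA, the GC box GGGCGG and the TATA box TATAAA, each searched on both strands. CXCL8 lies at chr4:73740419-73740568 on the plus strand, CCL20 at chr2:227813692-227813841 on the plus strand, and CXCL5 at chr4:73998678-73998827 on the minus strand. CXCR4 lies at chr2:136118150-136118299 and CXCR1 at chr2:218166963-218167112, both on the minus strand, CXCR5 at chr11:118893242-118893391 and CCR9 at chr3:45886393-45886542, both on the plus strand, and CCL24 at chr7:75823373-75823522 on the minus strand.
CXCL8: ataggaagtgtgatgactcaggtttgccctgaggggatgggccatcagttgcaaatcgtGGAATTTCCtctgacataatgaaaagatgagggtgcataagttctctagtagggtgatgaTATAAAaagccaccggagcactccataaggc
CCL20: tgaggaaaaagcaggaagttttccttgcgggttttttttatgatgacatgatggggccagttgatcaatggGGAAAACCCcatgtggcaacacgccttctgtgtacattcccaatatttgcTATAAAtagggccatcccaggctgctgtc
CXCL5: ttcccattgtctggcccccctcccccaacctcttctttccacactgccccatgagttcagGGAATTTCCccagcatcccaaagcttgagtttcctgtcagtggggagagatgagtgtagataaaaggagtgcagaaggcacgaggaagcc
CXCR4: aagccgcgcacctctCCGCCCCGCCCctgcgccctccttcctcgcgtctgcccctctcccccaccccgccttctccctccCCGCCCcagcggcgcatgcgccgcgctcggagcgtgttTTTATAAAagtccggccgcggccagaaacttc
CXCR1: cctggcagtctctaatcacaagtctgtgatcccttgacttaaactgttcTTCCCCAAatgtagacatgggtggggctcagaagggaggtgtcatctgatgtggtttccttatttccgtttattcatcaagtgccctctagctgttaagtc
CXCR5: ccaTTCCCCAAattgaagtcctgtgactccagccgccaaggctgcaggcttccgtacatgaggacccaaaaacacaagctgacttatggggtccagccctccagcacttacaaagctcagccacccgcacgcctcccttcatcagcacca
CCR9: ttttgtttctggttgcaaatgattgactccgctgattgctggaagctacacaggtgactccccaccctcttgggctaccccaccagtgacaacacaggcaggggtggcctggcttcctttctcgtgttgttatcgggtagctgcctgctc
CCL24: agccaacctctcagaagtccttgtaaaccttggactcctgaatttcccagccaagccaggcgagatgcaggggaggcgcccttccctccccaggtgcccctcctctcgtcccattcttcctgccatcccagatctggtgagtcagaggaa

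In this window CXCL8, CCL20 and CXCL5 held the NF-kB letters. Of the 8 ligands of the IL-17 group with a promoter in the RefSeq table, 7 held them. None of CXCR4, CXCR1, CXCR5, CCR9 and CCL24 held them, nor did any of 14 receptors with a promoter. Over all 38 of the 49 genes with a promoter, 10 (26.3%) held the NF-kB letters, against 11.2% of 27305 promoters. The TATA box was found in 11 of 38 (28.9%, against 7.14% of all promoters), the C/EBP letters in 8 (21.1%, against 20.4%), the GC box in 9 (23.7%, against 36.6%) and the octamer in 0 (against 0.985%). In CXCR4 the capitals of 2 GC boxes overlap, as do those of 2 TATA boxes read on opposite strands. A match of letters is no measured binding site.

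Among the receptors several genes rose and none fell. Of the 12 tested receptors, 5 were higher with IL-17A at an adjusted p under 0.05 (41.7%) and 0 were lower. Over all 23945 tested probes 4.43% were higher and 3.17% lower. By looser measures the receptors stood nearer to the whole array. Limma gave 6 of the 12 an unadjusted p under 0.05, against 31.3% of all tested probes. The groups did not overlap for 5 receptors that were higher and 1 that was lower, against 39.0% of all tested probes in either direction. The receptors' median log2 difference was 0.15, the ligands' -0.10 and that of all tested probes 0.01. The p-values are from limma, adjusted by Benjamini and Hochberg's method across the whole array, since an exact permutation test of 3 arrays against 3 cannot give a p under 0.1. In bulk RNA, a higher level per cell and a larger share of cells that express the gene cannot be told apart.

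Of the 4 B-cell positioning receptors, 3 rose. CXCR4, the receptor for CXCL12 that holds B cells in the marrow and in the dark zone of germinal centres, had a log2 signal of 14.44, 14.46 and 14.41 on the IL-17A arrays and of 14.07, 14.14 and 14.22 on the control arrays. The lowest IL-17A array thus lay above the highest control array. The difference was 0.30 ± 0.05 (SE, n = 3 arrays per group), a 1.23-fold rise with an adjusted p of 0.0367 from limma. With 75th percentile scaling in place of quantile normalization it was 0.22, with an adjusted p of 0.0855 from limma. The CXCR4 probe is printed at 10 spots on each array, and these differed within an array by an SD of 0.0413 to 0.0782 before normalization. That SD is of spots on 1 array and does not cover the spread between samples.

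CXCR5, which guides B cells into follicles toward CXCL13, had signals of 12.51, 12.57 and 12.48 with IL-17A and of 12.30, 12.28 and 12.24 without it. The groups did not overlap, and the difference was 0.25 ± 0.04 (SE; 1.19-fold, adjusted p = 0.0364). CCR7, which takes lymphocytes into the T-cell zone of lymph nodes toward CCL19 and CCL21, reached 9.10, 9.10 and 9.03 with IL-17A and 8.54, 8.54 and 8.78 in the controls. Control replicate 3 stood closest to the IL-17A arrays but below all of them. The difference was 0.46 ± 0.08 (SE; 1.37-fold, adjusted p = 0.0362).

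CCR6, the receptor for CCL20 on naive and memory B cells, did not follow the other receptors of this group. Its signals were 11.43, 11.39 and 11.44 with IL-17A and 11.59, 11.49 and 11.52 in the controls. All 3 IL-17A arrays were the lower ones, by 0.12 ± 0.04 (SE), but the adjusted p was 0.142.

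CCR9, which binds CCL25 and is known for homing of lymphocytes to the small intestine, was the receptor with the lowest p. Its signals were 7.10, 7.14 and 7.12 with IL-17A and 6.50, 6.66 and 6.72 in the controls. The IL-17A arrays lay close together and above all controls. The gene rose by 0.50 ± 0.06 (SE), or 1.41-fold, with an adjusted p of 0.0315.

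CXCR1 is a receptor for CXCL8 best known on neutrophils. By the brightest probe it showed the largest difference among the tested genes of the family, at a signal close to background. The IL-17A arrays read 3.04, 3.33 and 2.99 and the controls 2.56, 2.18 and 2.24, of which 2 of 3 were well above background. The groups did not overlap. The difference of 0.80 ± 0.14 (SE; 1.74-fold, 95% confidence interval of the log2 difference 0.46 to 1.13, adjusted p = 0.0367) made CXCR1 the single gene of the 27 past 1.5-fold with an unadjusted p under 0.05, which is 3.70% of them against 2.18% of all tested probes. With normexp background correction the CXCR1 difference was 0.08 (adjusted p = 0.130), so its size and its call depend on how the background is treated. Its neighbour and close relative CXCR2 was at 3.67, 2.66 and 2.05 with IL-17A and at 2.85, 2.47 and 2.61 in the controls. The CXCR2 arrays overlapped, and the interval of its difference, -0.87 to 1.16, is wide enough to hold no difference as well as that of CXCR1.

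**Figure D2:**
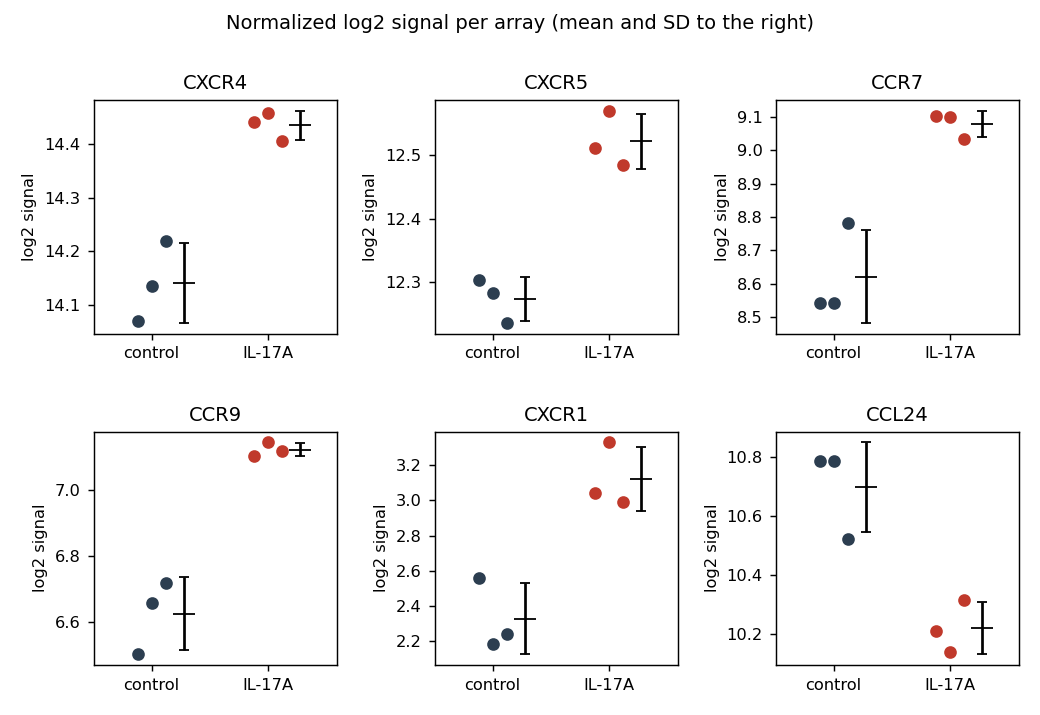
Normalized log2 signal of the 6 genes with an adjusted p under 0.05 on each control array (dark, replicates 1 to 3 from left) and IL-17A array (red), with the mean and SD of the 3 arrays to the right. The axes start above 0 and differ between panels. In each panel the 2 groups do not overlap.

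Among the remaining tested receptors, CXCR3, the receptor for the interferon-inducible ligands CXCL9, CXCL10 and CXCL11, read 5.08, 5.23 and 5.39 with IL-17A and 5.31, 5.19 and 5.32 without it. These overlap, and the difference of -0.04 had an interval of -0.26 to 0.18. CCR1, CCR10, CX3CR1 and XCR1 were detected on all 6 arrays, with differences of 0.15, 0.00, 0.09 and -0.20 and adjusted p-values from 0.270 to 0.981. CCR3, CCR4, CCR8 and CXCR6 were detected on no array, and CCR2 on 1 control array, so none of them was tested.

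Among the ligands a single gene fell. Of the 15 tested ligands, 1 was lower (6.67%, against 3.17% of all tested probes) and 0 were higher at an adjusted p under 0.05. Limma gave 4 of them (26.7%) an unadjusted p under 0.05, against 31.3% of all tested probes. CCL24, or eotaxin-2, which attracts eosinophils through CCR3 and is made mostly by macrophages, read 10.21, 10.14 and 10.31 with IL-17A and 10.78, 10.79 and 10.52 in the controls. Every IL-17A array lay below every control array, with control replicate 3 again the nearest. CCL24 fell by 0.48 on the log2 scale (SE 0.09, adjusted p = 0.0437). Its receptor CCR3 was not detected. Of 11 monocyte and macrophage markers on the array, 7 were detected on no array, among them CSF1R, CD163 and S100A9. Of the 4 that were tested, 1 passed the adjusted threshold, TYROBP, an adaptor of myeloid receptors, which fell by 0.35 (adjusted p = 0.0355). The others had differences of -0.28 for FCN1 (adjusted p = 0.0653), -0.91 for MARCO (adjusted p = 0.176) and -0.07 for CD14 (adjusted p = 0.584), and the groups overlapped for MARCO and CD14. The summed signal of all 11, the undetected ones included, was 123 to 129 on the IL-17A arrays and 143 to 156 on the controls. The part of these markers in the CCL24 result was not tested.

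The inflammatory ligands that B-cell receptor signals induce were detected on all arrays. CCL3 read 6.71, 6.84 and 6.72 with IL-17A and 6.76, 6.82 and 6.95 without it, which overlap. CCL4 read 5.95, 6.08 and 6.01 against 6.14, 6.25 and 6.21, with all IL-17A arrays lower, by 0.19 (SE 0.05, adjusted p = 0.0789). CCL5, which shares the receptor CCR1 with CCL3, read 6.37, 6.48 and 6.43 against 6.31, 6.19 and 6.31, with all IL-17A arrays higher, by 0.16 (SE 0.05, adjusted p = 0.122). Neither CCL4 nor CCL5 passed the adjusted threshold.

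CCL17, a ligand of CCR4 that draws regulatory and Th2 T cells and is secreted by some B-cell lymphomas, read 3.62, 3.82 and 3.85 with IL-17A and 3.40, 2.84 and 3.64 in the controls. Control replicate 3 lay within the IL-17A range, and the difference of 0.47 (SE 0.21) had an adjusted p of 0.197. CCL22, the other ligand of CCR4, was not detected. CXCL16, which exists as a membrane protein and as a shed ligand of CXCR6, read 5.20, 5.34 and 5.23 against 5.13, 5.01 and 5.26, with overlap between the groups and an adjusted p of 0.331.

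In the IL-17 response group, 4 of 9 ligands were tested, and 0 passed the adjusted threshold, with 1 at an unadjusted p under 0.05 by limma. All 4 had differences below 0, with a median of -0.26. CXCL5, which recruits neutrophils, was the bright one, with signals of 9.12 to 9.25 with IL-17A and 9.34 to 9.39 without it. The groups of CXCL5 did not overlap, and the difference was -0.20 ± 0.05 (SE, adjusted p = 0.0637). CXCL1, CXCL2 and CCL2 lay near background, with differences of -0.33, -0.15 and -0.58 and intervals that all span 0. The second tested CXCL1 probe differed by -0.88, with an interval of -2.67 to 0.92. The interferon-inducible CXCL9, CXCL10 and CXCL11 were detected on no array.

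The homeostatic ligands that stroma makes for the B-cell receptors gave no call at their brightest probe, but a dimmer CXCL12 probe did, as the paragraph on probes describes. By the brightest probe CXCL12, CCL19, CCL25 and CCL21 had differences of -0.07, 0.02, -0.02 and -0.58 and adjusted p-values from 0.232 to 0.953. The second CCL21 probe differed by 0.21, and the second CCL19 probe by 0.75 with an interval of -0.24 to 1.75. CXCL13, CXCL14 and CCL28 were not detected, nor were CCL8, CCL13, CCL18 and XCL1, while the macrophage chemokine CCL23 was detected on all 6 arrays (difference -0.10, adjusted p = 0.495). CX3CL1, or fractalkine, was well above background on 2 control arrays and on 0 IL-17A arrays, and its groups did not overlap. CX3CL1 read 1.86, 1.98 and 1.52 with IL-17A and 2.19, 2.48 and 2.11 in the controls. With no IL-17A signal well above background, these values give no size for the difference. With 2 detected arrays CX3CL1 was not tested.

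**Figure D3:**
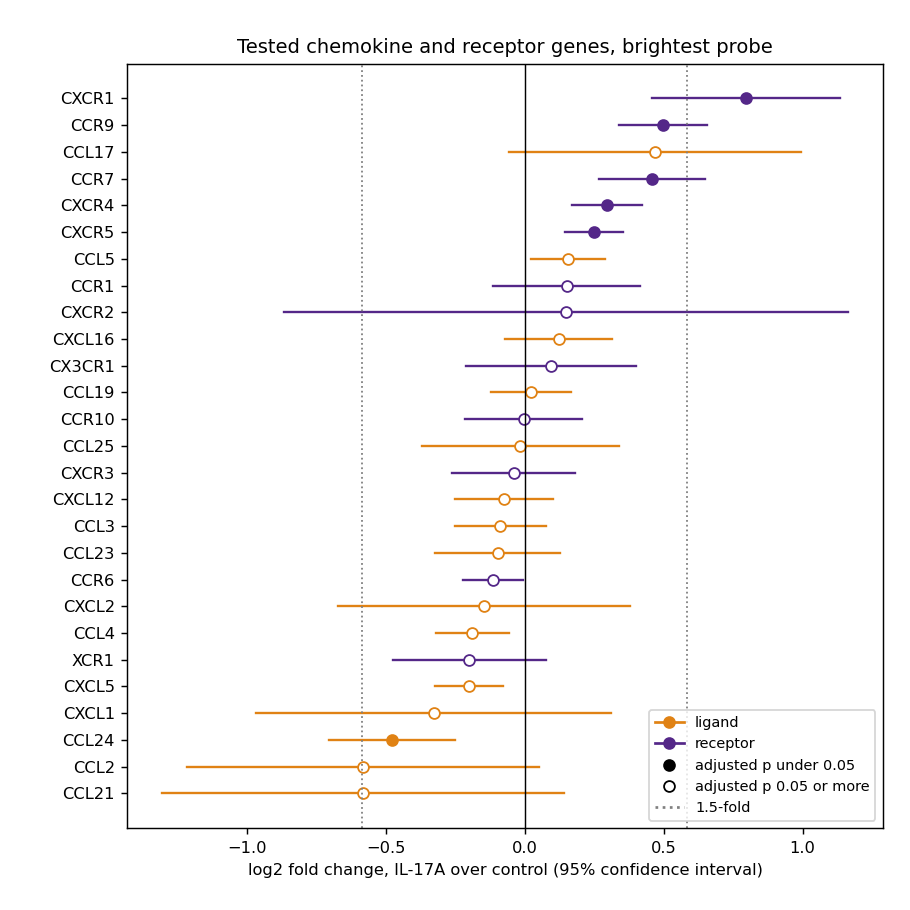
Log2 fold change, IL-17A over control, of the 27 tested genes by their brightest probe, with its 95% confidence interval (limma). Filled points have an adjusted p under 0.05 and dotted lines mark 1.5-fold. CXCR1, CCR9, CCR7, CXCR4 and CXCR5 are filled to the right of 0, and CCL24 is filled to the left.

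Counted over all 27 tested genes, the groups did not overlap for 10 (37.0%, 6 higher and 4 lower with IL-17A), close to the 39.0% of all tested probes. The number of genes whose arrays separate was thus near the background of the array. The share at an adjusted p under 0.05 was 18.5% higher and 3.70% lower, against 4.43% and 3.17% of all tested probes. The lower share was thus near the background as well. The 15 ligands had 11 differences below 0, and the 12 receptors had 8 above 0.

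Over 1 probe was present for 10 of the 49 genes, and the probes did not always give 1 answer. Of the 34 tested probes of the family, 6 were higher and 3 lower at an adjusted p under 0.05. Over all 23945 tested probes, 4.43% were higher and 3.17% lower. The dimmer CXCR3 probe, which targets NM_001504, read 3.02, 3.03 and 3.15 with IL-17A and 2.82, 2.81 and 2.71 in the controls, higher by 0.29 (adjusted p = 0.0446) where the brighter probe differed by -0.04. The CXCL12 probe for NM_199168 read 3.19, 3.21 and 3.04 against 3.63, 3.55 and 3.55, lower by 0.43 (difference -0.43, adjusted p = 0.0326) where the brightest, for NM_001033886, differed by -0.07. Of the remaining CXCL12 probes, one differed by 0.02 and the other was detected on no array. The second CCL4 probe, at -0.29 (adjusted p = 0.0354), pointed the same way as the first. The mean over both CCL4 probes had an adjusted p of 0.0372. For CXCR3, CXCL12 and CCL4 the call for the gene therefore rests on which probe stands for it, and whether the probes report different transcripts was not tested. Probes of close relatives, such as CXCR1 and CXCR2 or CCL3 and CCL4 with their gene copies, may share RNA, and this was not tested either.

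**Figure D4:**
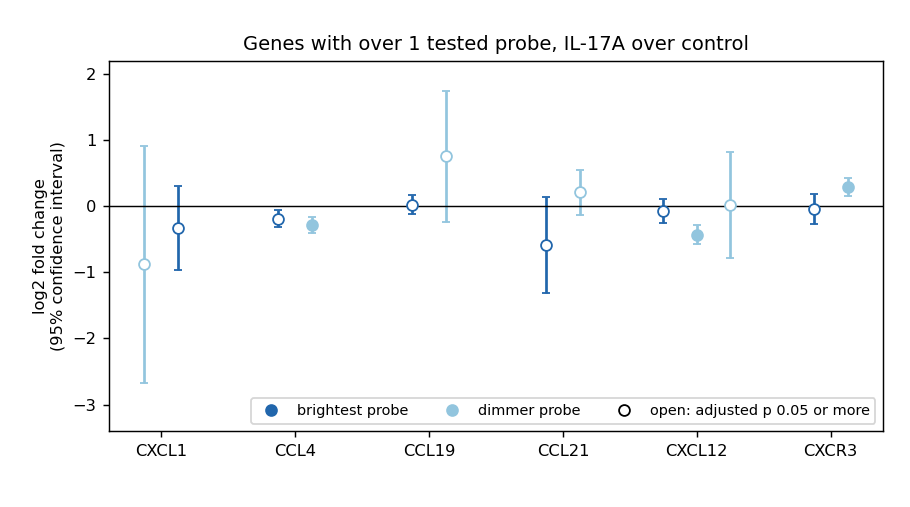
Log2 fold change, IL-17A over control, of every tested probe of the 6 genes with over 1 tested probe, with 95% confidence intervals (limma). The brightest probe of a gene is dark, the others are light, and filled points have an adjusted p under 0.05. The filled points are 1 dimmer probe each of CCL4, CXCL12 and CXCR3.

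Set side by side as receptor and ligand, 32 known pairs were chosen from the 49 genes. The list does not hold every known pair among them, so the counts below are for the chosen pairs only. In 6 pairs both partners were detected on all 6 arrays, namely CXCR4 with CXCL12, CCR7 with CCL19, CCR9 with CCL25, and CCR1 with CCL3, CCL5 and CCL23. Of the receptors that rose, CXCR4, CCR7 and CCR9 thus had a chosen ligand detected on all 6 arrays, and CXCR5 and CXCR1 had none. Such a ligand was also found for CCR1 and CXCR2, which were tested and not called, and for CXCR6, CCR3 and CCR4, which were not tested. It was therefore not particular to the receptors that rose. None of the ligands in the 6 pairs was called different at its brightest probe. In 7 pairs the receptor was detected on all 6 arrays and the ligand on none, among them CXCR5 with CXCL13, CCR6 with CCL20, and CXCR3 with its 3 interferon-inducible ligands. In 3 pairs this was turned round, with CXCL16, CCL24 and CCL17 detected and their receptors CXCR6, CCR3 and CCR4 not.

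Other genes of the chemokine system were read from lists that hold receptor signalling, desensitization, atypical receptors, ligand processing and further ligands. Of 66 such genes on the array 50 were tested, with 3 higher (6%) and 4 lower (8%) at an adjusted p under 0.05 and a median difference of 0.04, against 4.43% and 3.17% of all tested probes. In signalling, GNB1, a G-protein beta subunit, rose by 0.24 (12.47, 12.49 and 12.48 against 12.18, 12.25 and 12.29). RHOH, a GTPase of blood cells that restrains Rac, fell by 0.54 (12.12, 12.04 and 12.07 against 12.74, 12.60 and 12.51, adjusted p = 0.0313). GNG11, a G-protein gamma subunit, fell by 0.55 (5.68, 5.35 and 5.58 against 6.16, 6.09 and 6.01, adjusted p = 0.0368), and the phospholipase PLCB2 fell by 0.33 (adjusted p = 0.0375). These downstream partners therefore moved in both directions.

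In desensitization, RGS10 and RGS3, which both speed up the switching off of G proteins, moved in opposite directions. RGS10 rose by 0.24 (adjusted p = 0.0388), and RGS3 fell by 0.23 (adjusted p = 0.0491). RNF113A, a ubiquitin ligase reported to act on CXCR4, rose by 0.30 (11.87, 11.90 and 11.89 against 11.54, 11.59 and 11.64, adjusted p = 0.0327). Of the 6 tested atypical receptors, 0 passed the adjusted threshold, and limma gave 1 an unadjusted p under 0.05, CCRL2 at 0.18 (adjusted p = 0.110). Of the 4 tested further ligands and the 5 tested processing genes 0 passed by limma, with CCL15 at 0.28 (unadjusted p = 0.0303, adjusted p = 0.122) and the metalloproteinases ADAM10 at 0.10 and MMP9 at -0.15.

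The arrays carried the B-cell markers that the label calls for. All 10 B-cell markers were detected, 0 passed the adjusted threshold (limma gave 4 an unadjusted p under 0.05), and their summed signal was 48684 to 52018 with IL-17A and 48863 to 50156 without it. Of 6 genes of lymphoma activation 1 passed the adjusted threshold, PRDM1, which rose by 0.38 (adjusted p = 0.0327). The others differed by 0.19 for BCL2, 0.13 for CD40, 0.07 for CD74, -0.10 for IRF4 and -0.16 for BCL6. Their adjusted p-values by limma were 0.0547 to 0.674. Of 12 T and NK cell markers 8 were tested, and these 8 were detected on all 6 arrays. Of their differences 5 were above 0 and 3 below, with a median of 0.06. Among them CD3E fell by 0.46 (adjusted p = 0.0401), while CD2, at a like low signal, differed by 0.51 (adjusted p = 0.0539). CD8A, at a higher signal, differed by -0.51 (adjusted p = 0.0680). The summed signal of the list was 273 to 283 against 276 to 294. Mesenchymal markers were tested for 2 of 8 genes. GAPDH differed by 0.01. Between 23570 and 24077 probes were detected per array, 0 probes were saturated, and arrays correlated at 0.994 to 0.997 within a group and 0.993 to 0.995 between groups, across probes.

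Scan and group were partly joined. All 3 controls were scanned together with IL-17A replicate 1, while the other two IL-17A arrays shared another scan. With the 4 arrays of the shared scan alone, the log2 differences were 0.30 for CXCR4, 0.24 for CXCR5, 0.48 for CCR7, 0.48 for CCR9, 0.72 for CXCR1 and -0.49 for CCL24. Their unadjusted p-values were 0.0141 to 0.0288 and their adjusted ones 0.190 to 0.211 (limma, with the lone IL-17A array assumed to vary like the controls). With scan as a block over all 6 arrays, the adjusted p-values were 0.110 to 0.151, and 48 probes passed over the whole array. The calls also depended on single arrays. Without any 1 of the 3 IL-17A arrays, or without control replicate 1 or 2, 0 of the 6 genes stayed at an adjusted p under 0.05, and without control replicate 3 there were 4, namely CXCR4, CCR7, CCR9 and CCL24. The loss ran over the whole array, where 1818 probes passed with all arrays, 2 to 69 in these 5 fits and 890 without control replicate 3. With each array left out in turn, the differences were 0.26 to 0.33 for CXCR4, 0.23 to 0.27 for CXCR5, 0.42 to 0.54 for CCR7, 0.44 to 0.54 for CCR9, 0.69 to 0.91 for CXCR1 and -0.56 to -0.43 for CCL24, with unadjusted p-values of at most 0.00999. An unadjusted p under 0.05 by limma was found for 29.6% to 48.1% of the 27 genes, and for 21.1% to 31.3% of all tested probes.

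**Figure D5:**
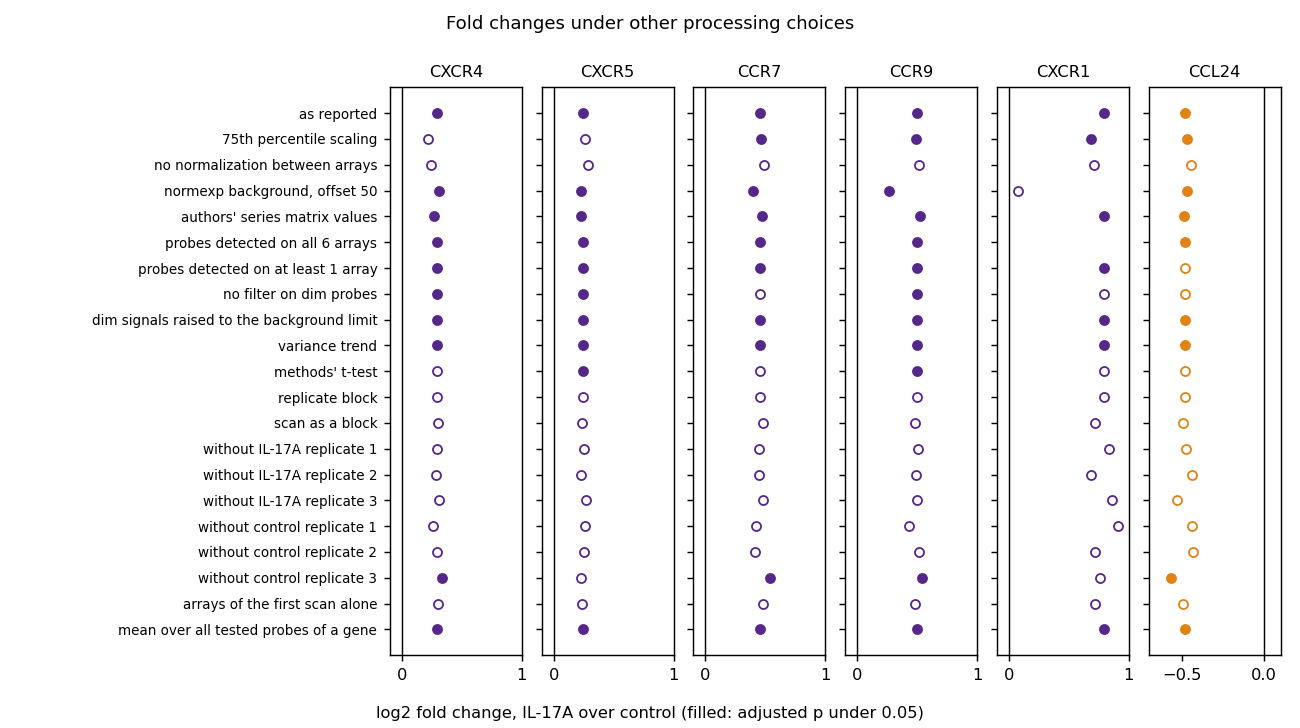
Log2 fold change, IL-17A over control, of the 6 called genes as reported and under 20 other processing choices, 1 choice per line. Filled points have an adjusted p under 0.05, and a missing point was not tested under that choice. The 6 genes keep their side of 0 throughout, CXCR1 comes closest to 0 with normexp background correction (0.08), and the adjusted p is over 0.05 when a block is added or most single arrays are left out.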

How the data were processed

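The authors extracted each 1-colour Agilent array with Feature Extraction 11.0.1.1. The deposited files hold a background-subtracted intensity per spot, not normalized between arrays, and detection flags. The deposited series table holds log2 values after the authors' quantile normalization in GeneSpring GX, and it served as an alternative. No column was unmatched to a sample (0). Intensities below 1 were set to 1, the 43118 spots were averaged to 34127 probes on the log2 scale, and quantile normalization was applied across the 6 arrays, following the study's methods. Probes were named through RefSeq (GRCh38.p14), which gave 1 gene for 25771 probes. Quantile normalization gives all arrays 1 distribution, so a shift of all genes cannot be seen.

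Probes with detection on 3 or more of the 6 arrays (23945) were compared by limma 3.58.1 (R 4.3.3, lmFit and eBayes, two-sided, no covariates). A gene was represented by its probe with the highest mean signal, among tested probes where there were any. The 75th percentile intensity was 383 to 430 per array. The procedure was tested on simulated data.

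The genes and lists were chosen with earlier results of these data known. Values per array are given for genes with an adjusted p under 0.05 or past 1.5-fold with an unadjusted p under 0.05, for genes known in B-cell positioning, B-cell lymphoma or IL-17 responses where detected, and, of each further list, up to 3 genes with the lowest p. PLCB2, CXCR2, CXCL5, CX3CL1 and the second probes were singled out after their values were seen. Receptor and ligand pairs were written from general knowledge. Promoters come from RefSeq (GRCh38.p14), with a promoter for 38 of the 49 genes. The alternatives were other normalizations, background corrections, filters, probes and tests, blocks, and each array left out.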

Additional observations from a re-analysis of the deposited data

How the results depend on the processing

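Of 13 named genes under 20 alternatives, 257 of 259 values kept their direction, 67 lost the adjusted threshold and 1 gained it. Both reversals were of CXCR3, at 0.12 as the mean over its probes and 0.034 without IL-17A replicate 1 (-0.12 to 0.034 over the arrays left out in turn), and their cause was not tested. CXCR4, CXCR5, CCR7, CCR9, CXCR1 and CCL24 kept their direction and an unadjusted p under 0.05 in every alternative that tested them. As reported, 5 genes of the family were higher and 1 lower at an adjusted p under 0.05, 1 was past 1.5-fold with an unadjusted p under 0.05, and 7 genes of the further lists passed. With 75th percentile scaling these became 3, 1, 2 and 2. The calls lost among the higher genes were CXCR4 and CXCR5, the latter at an adjusted p of 0.0507 by limma. Without normalization they were 0, 0, 3 and 0, and over all probes 21 were higher and 25 lower in place of 1060 and 758. No filter on dim probes gave 3, 0, 3 and 4, and the methods' t-test 2, 0, 1 and 4. Still called higher were CCR9, CXCR4 and CXCR5 without the filter, and CCR9 and CXCR5 by the t-test. Probes detected on at least 1 array gave 0 lower and 2 past 1.5-fold. With normexp, and with detection on all 6 arrays, 0 were past 1.5-fold. A variance trend gave 2 lower (CXCL5 added) and 10 of the further lists, and the mean over probes 2 lower (CCL4 added). With scan as a block the counts were 0, 0, 3 and 0, and with the arrays of the first scan alone, chosen after seeing the data, 0, 0, 4 and 0. Leaving out 1 array gave 0 to 3 higher, 0 to 1 lower, 1 to 3 past 1.5-fold and 0 to 2 of the further lists. Only the fit without control replicate 3 kept calls at an adjusted p under 0.05, and each such fit has fewer arrays.

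The replicate numbers showed no sign of pairing, as deviations of same-numbered arrays correlated at -0.087, -0.0022 and -0.047. With 3 arrays per group such values cannot settle whether the samples were paired. With a replicate block, 0 were higher, 0 lower, 1 past 1.5-fold and 0 of the further lists passed, 4 probes passed over the whole array, and 8 of 27 genes (29.6%, against 26.6% of all tested probes) had an unadjusted p under 0.05 by limma. With 3 arrays per group and signals near background, differences such as those of CXCL1, CCL2, CCL21 and CXCR2 could not be resolved.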
